A study of Rattus norvegicus with 36 samples.

Results

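The synaptic vesicle and release machinery comprises the proteins that fill, dock, prime, fuse and retrieve the vesicles of a nerve terminal. The set described here is a fixed list of 40 genes, and its members were found by gene symbol. Of these, 39 had a row among the 20603 rows of the deposited table, and all 39 had a median of at least 10 normalized counts, the minimum that 15837 rows of the table met. Sv2b was not analysed here, since no row carries its symbol. Of the 20603 rows, 2584 are named UNKOWN in place of a symbol, and whether Sv2b is among them is not known. Rows of that name were not left out, so those that met the minimum count among all genes below. Rows stand for genes and not for transcripts, so choice among splice forms was not examined, and isoform choice was described as choice among paralogs.

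The series profiled bulk hippocampus of 36 female rats in 6 groups of 6. The groups were Acyc16m (acyclic, 16 months), Acyc9m (acyclic, 9 months), Irreg9m (irregular cycles, 9 months) and Reg9m (regular cycles, 9 months). The others were Reg6m (regular cycles, 6 months) and RegOVX10m (labelled regular, ovaries removed at 9 months, sampled at 10 months). Strain is not given in the labels used here, and no transgene or drug is named. The columns of values carry only the tissue name and a running number, so no value could be tied to a group. The 36 libraries were therefore treated as 1 ungrouped set. A spread over libraries holds animal, group and technical differences together, and whether libraries that move together do so between or within the 6 groups cannot be told apart. Libraries are named below by their running number, and whether its order follows that of the samples is not known.

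In textbook terms, a rise in calcium at the terminal is read by synaptotagmins, which act on the SNARE proteins that join vesicle and plasma membrane. The active zone, a protein scaffold built from Bassoon, Piccolo, RIM, ELKS and Munc13 proteins, places and primes vesicles beside calcium channels. In the hippocampus, granule and pyramidal cells load glutamate into vesicles mainly through the transporter that Slc17a7 encodes, while inhibitory interneurons release GABA with much of the same machinery.

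Column totals lay between about 34456000 and 35985900 normalized counts. Low values in a column clustered at multiples of a common step, from which the depth was estimated as about 17909000 reads in library 30, a median of 35496200 and 40248100 in library 13. Of the values under about 10 reads, 77.3% to 92.6% per library lay within 0.05 of a whole number of such steps. The hippocampal label was checked on 10 markers of hippocampal neurons, all of which had a row. Prox1, a granule cell transcription factor, lay between 3301 and 5722 normalized counts, and Wfs1, a marker of field CA1, between 6799 and 18360. Library 17 stood apart from the rest. Its median absolute log2 deviation from the gene medians was 0.13, against a median of 0.07 over the libraries, and it was followed by library 16 with 0.12 and library 10 with 0.10. It had the highest summed counts of the oligodendrocyte list (340053, median 175627), the astrocyte list (117229, median 95612), the neocortex list (3437, median 2370), the thalamus list (1735, median 1583), the endothelium list (5630, median 3969) and the blood list (4788, median 1682), and the lowest of the interneuron list (10932, median 19477). The summed microglia list was low in library 17 (4038, median 4945), above only 1 other library. The list of hippocampal neurons lay near its median there (101796, median 101197). The striatum list (3740, median 3278) lay above 34 other libraries and the choroid plexus list (230, median 101) above 30. The thalamus markers were mixed in library 17. Tcf7l2 and Zic1 were highest there, while Lhx9 lay above only 2 other libraries, Synpo2 above 4 and Rgs16 above 12. By the mean log2 level of the thalamus list, which the correlations below use, libraries 11, 12 and 35 lay above library 17. Counts of called genes are given below with and without library 17. No pair of libraries was identical, the closest pair differing by a median of 0.08 on the log2 scale.

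The promoters of 4 members are shown first, because they belong to the pair of members that moved most closely together (Syp and Rab3a) and the pair that moved most clearly apart (Vamp1 and Rab3c). Syp encodes synaptophysin, an abundant membrane protein of the vesicle, and Rab3a the main small GTPase on the vesicle surface. Vamp1 encodes synaptobrevin 1, a vesicle SNARE, and Rab3c another Rab3 GTPase. Each runs from 250 bases before to 50 bases after the RefSeq gene start on build GRCr8, on the coding strand, 5′ to 3′. The windows are chrX:17536400-17536699 (minus strand) for Syp, chr16:18722224-18722523 (minus strand) for Rab3a, chr4:159698644-159698943 (plus strand) for Vamp1 and chr2:43575894-43576193 (minus strand) for Rab3c. Capitals mark GGGCGG (the GC box) and TGACGTCA (the cyclic AMP response element), on either strand.
Syp: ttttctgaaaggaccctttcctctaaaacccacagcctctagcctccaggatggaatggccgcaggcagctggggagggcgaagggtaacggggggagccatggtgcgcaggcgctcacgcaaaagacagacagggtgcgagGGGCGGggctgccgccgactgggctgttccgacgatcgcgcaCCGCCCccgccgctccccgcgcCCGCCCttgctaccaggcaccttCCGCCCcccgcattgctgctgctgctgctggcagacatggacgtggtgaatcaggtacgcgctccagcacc
Rab3a: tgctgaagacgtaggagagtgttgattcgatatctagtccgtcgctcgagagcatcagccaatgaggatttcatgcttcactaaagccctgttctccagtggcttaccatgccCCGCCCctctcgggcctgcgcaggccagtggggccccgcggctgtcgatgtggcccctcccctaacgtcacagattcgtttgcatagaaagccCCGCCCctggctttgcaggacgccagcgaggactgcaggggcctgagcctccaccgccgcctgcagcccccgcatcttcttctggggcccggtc
Vamp1: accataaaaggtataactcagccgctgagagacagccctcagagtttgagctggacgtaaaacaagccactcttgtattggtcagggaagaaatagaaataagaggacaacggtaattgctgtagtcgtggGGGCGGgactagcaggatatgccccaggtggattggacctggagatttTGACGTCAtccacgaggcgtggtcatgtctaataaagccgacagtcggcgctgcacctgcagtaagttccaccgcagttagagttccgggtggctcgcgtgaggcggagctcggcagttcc
Rab3c: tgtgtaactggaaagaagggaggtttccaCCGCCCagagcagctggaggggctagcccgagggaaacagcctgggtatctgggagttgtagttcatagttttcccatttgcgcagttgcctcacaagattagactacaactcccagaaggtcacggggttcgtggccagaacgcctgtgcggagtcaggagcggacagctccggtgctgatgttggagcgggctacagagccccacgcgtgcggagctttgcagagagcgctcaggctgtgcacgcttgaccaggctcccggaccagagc

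A promoter entry was found for 33 of the 40 listed genes, with a second start for Unc13b, and 7 genes had none. The 34 promoters of members had a median GC content of 62.8% (45.7% to 76.7%), against 51.7% over all 33469 promoters of the table. GGGCGG was found on either strand in 23 of the 33 genes, against 33.1% of all promoters. All 4 sequences above hold it, those of the pair that moved together and those of the pair that moved apart. TGACGTCA was found in Syn1 and Vamp1 (1.83% of all promoters), GCGCATGC, a core of the NRF1 motif, in Bsn and Stx1a (2.47%), and CACGTG, an E-box, in Cplx3 and Nsf (6.42%). TTCAGCACC, the left part of the RE1 element bound by the repressor REST, was found in Unc13a alone (0.356% of all promoters). TATAAA was in 0 of the 33 genes, against 14.2% of all promoters. None of these motifs lies inside another, and a match is a description of letters in this window.

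Over the 36 animals, 8 of the 39 members had an SD over 0.15 on the log2 scale. Of these, 5 (Sv2c, Syt2, Slc17a6, Rab3c and Unc13c) had an SD over 0.25. The SD over libraries of log2(normalized count + 1) had a median of 0.10 over the 39 members, against 0.12 over the 15837 genes, and 21 members lay under that value of all genes. Among genes with a median of at least 1000 normalized counts, the median SD was 0.10 over 32 members, against 0.08 over 6486 genes. By that median, members varied more than genes of such levels. Normalized counts are not per transcript length, so levels are not ranked between genes here.

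Among the vesicle proteins, Syn1, synapsin I, which tethers vesicles in the reserve pool, lay between 19057 and 24438 normalized counts with a median of 22482. Syp lay between 22794 in library 17 and 32926 in library 10, with a median of 29995. The Syp value of library 17 was below every other library. Sv2a, the vesicle glycoprotein that binds the drug levetiracetam, lay between 12297 and 15936 (median 14456). Its paralog Sv2c had the largest SD of all members, 0.33 on the log2 scale, with 102 normalized counts in library 10, a median of 174 and 288 in library 20. Syn2, Synpr (synaptoporin), Syngr1 and Syngr3 (synaptogyrins) had SDs between 0.10 and 0.15. Syn3 had an SD of 0.13, at a median of 315 normalized counts.

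The synaptotagmins held the steadiest member and a highly variable one. Syt11, which does not bind calcium, had the smallest SD of the set, 0.06, with values between 35143 and 41027 (median 38570). Syt1, the fast calcium sensor of forebrain synapses, lay between 42252 and 54784 (median 50702). Syt2, the fast sensor better known from the hindbrain and from some interneurons, lay between 195 in library 12 and 552 in library 17, with a median of 286 and an SD of 0.31. Without library 17 that SD was 0.27. Syt4, Syt5 and Syt7 had SDs between 0.08 and 0.15.

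Of the fusion machinery, Vamp1 and Cplx2 varied least. Snap25, a SNARE of the plasma membrane, lay between 55020 in library 18 and 78920 in library 14, with a median of 70402 and an SD of 0.10. Vamp1 (9981 to 12428, median 11408) and Cplx2, a complexin that clamps and promotes fusion (28973 to 34958, median 32480), followed Syt11 with SDs of 0.07 each. Vamp2, the main vesicle SNARE of the forebrain, lay between 35142 and 44402 (median 41056). Stx1a (syntaxin 1A, a SNARE of the plasma membrane), Nsf (the ATPase that takes SNARE complexes apart), Napb (its adaptor beta-SNAP), Cplx1 and Cplx3 had SDs between 0.08 and 0.16.

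Among the active zone and Rab3 genes, Rab3c and Unc13c varied most. Bsn, which encodes Bassoon, lay between 21117 in library 4 and 27257 in library 16, with a median of 23952. Unc13a, the priming factor of most forebrain synapses, lay between 7727 and 10912 (median 9580), while its paralog Unc13c lay between 357 and 830 (median 552), with an SD of 0.26. The highest Unc13c value was that of library 17. Rab3c lay between 748 in library 34 and 1522 in library 16, with a median of 1048 and an SD of 0.28. Rab3b had an SD of 0.19 and Rab3a one of 0.10. Rims1, Rims2, Unc13b, Pclo (Piccolo) and Erc2 (an ELKS scaffold) had SDs between 0.07 and 0.13.

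Of the vesicular glutamate transporters, Slc17a7 lay between 57950 in library 17 and 80218 in library 10, with a median of 70057. Slc17a6 lay between 326 in library 10 and 750 in library 17, with a median of 449 and an SD of 0.29. The same 2 libraries were thus at the ends of both genes, in opposite order. Dnm1 (dynamin 1) and Amph (amphiphysin), which act in vesicle retrieval, had SDs of 0.09 and 0.15.

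Library 17 gave the lowest value for 15 of the 39 members and the highest for 4 (Syt2, Unc13c, Rims1 and Slc17a6). Over all genes it gave the lowest value for 11.1% and the highest for 12.04%.

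**Figure D1:**
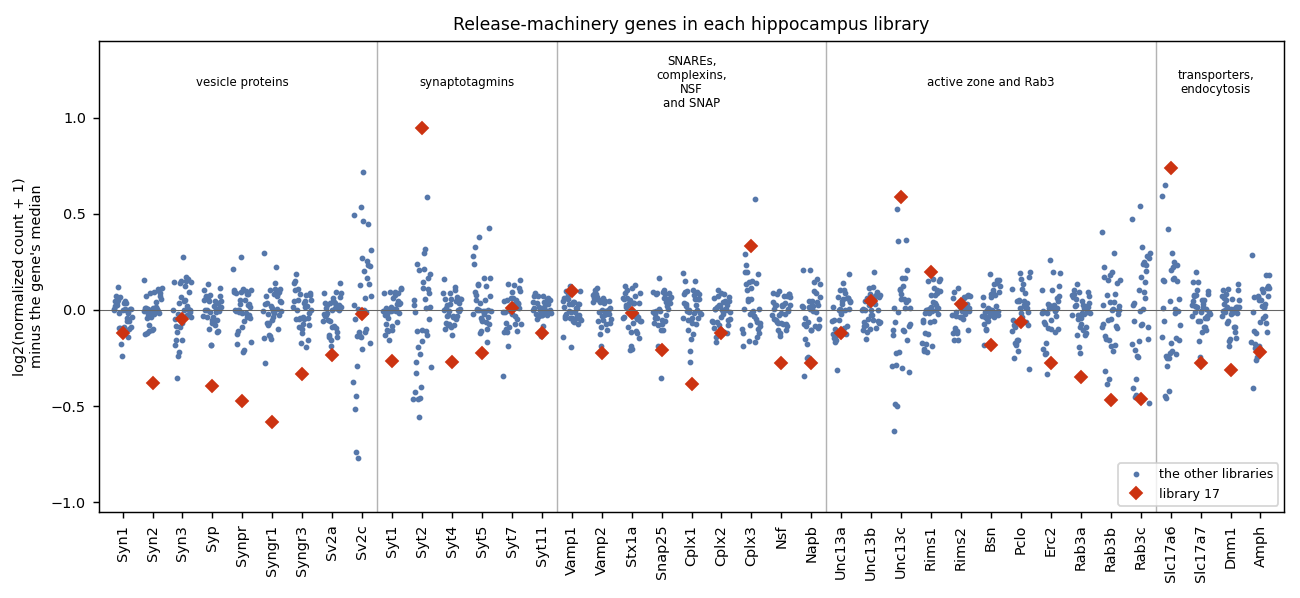
Each point is a library's log2(normalized count + 1) for a gene minus that gene's median over 36 libraries, with genes grouped by role and library 17 as a red diamond. Most genes stay close to 0, whereas Sv2c, Syt2, Unc13c, Rab3c and Slc17a6 spread widely, and library 17 is low for Syp and Syngr1 and high for Syt2.

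Paralog choice in 12 families was described by shares of a family's normalized counts, which are not per transcript length, and in each of the families below except the synaptogyrins the same paralog held the largest share in all 36 libraries. Slc17a7 took 98.7% to 99.6% of the counts of both transporters (median 99.4%), and Sv2a took 98.1% to 99.3% of those of Sv2a and Sv2c. Rab3a took 87.1% to 93.2% of the Rab3 counts, the lowest share being in library 16. Vamp2 took 74.2% to 80.7% of both synaptobrevins, and Unc13a took 73.1% to 79.1% of the Munc13 genes. Syn1 took 61.5% to 69.0% of the synapsins, Cplx2 63.5% to 71.6% of the complexins, Rims1 63.2% to 71.1% of both RIM genes and Bsn 69.7% to 77.5% of Bsn and Pclo. Syt1 took 44.4% to 49.2% and Syt11 33.7% to 37.7% of the 6 synaptotagmins. Syp took 87.5% to 91.9% of Syp and Synpr, and Syngr1 took 44.9% to 57.7% of both synaptogyrins, so that the larger share fell to Syngr3 in some libraries.

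The spread over libraries of the log2 ratio of 2 paralogs does not depend on a fixed transcript length of either. The Syt1 to Syt4 ratio was the steadiest, with an SD of 0.05 and a range of 1.14-fold over the libraries. The ratio of Slc17a6 to Slc17a7 had an SD of 0.35 and ranged 3.17-fold, and without library 17 its SD was 0.31 and its range 2.494-fold. Syt2 to Syt5 ranged 4.30-fold, or 3.08-fold without library 17, which had the highest ratio. With and without library 17, Sv2a to Sv2c ranged 2.65-fold and Rab3a to Rab3c 2.498-fold. Paralogs differed in whether they rose and fell together. As descriptions without a test, r was 0.831 for Syt1 and Syt4, 0.516 for Bsn and Pclo, 0.229 for Vamp1 and Vamp2, -0.409 for Syn1 and Syn3 and -0.450 for Slc17a6 and Slc17a7. For Syp and Synpr it was 0.325 with library 17 and -0.105 without it.

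Co-variation among members was described by Pearson's r on log2(normalized count + 1) over the 36 libraries. The median r of the 741 pairs of members was 0.173 (quartiles -0.121 and 0.459), against -0.00352 over all pairs of genes. An r of at least 0.5 was found in 21.6% of member pairs, against 2.52% of all pairs, and an r of -0.5 or lower in 1.48%, against 1.85%. These pairs were not matched for level. A median of at least 1000 normalized counts was reached by 32 of the 39 members and by 6486 of the 15837 genes. Without library 17 the median of member pairs was 0.157, and 19.7% of them had an r of at least 0.5. The highest r values were those of Syp and Rab3a (0.955, 95% interval 0.914 to 0.977), Rab3a and Dnm1 (0.926), Syp and Dnm1 (0.910), Vamp2 and Rab3a (0.891), Syn1 and Vamp2 (0.877) and Nsf and Dnm1 (0.870). The lowest were those of Vamp1 and Rab3c (-0.770, interval -0.877 to -0.592), Vamp1 and Rab3b (-0.664), Unc13c and Rab3a (-0.662), Unc13c and Vamp2 (-0.599), Unc13c and Syngr3 (-0.567) and Unc13c and Dnm1 (-0.554). Without library 17 Syp and Rab3a had an r of 0.942 and Vamp1 and Rab3c one of -0.754.

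**Figure D2:**
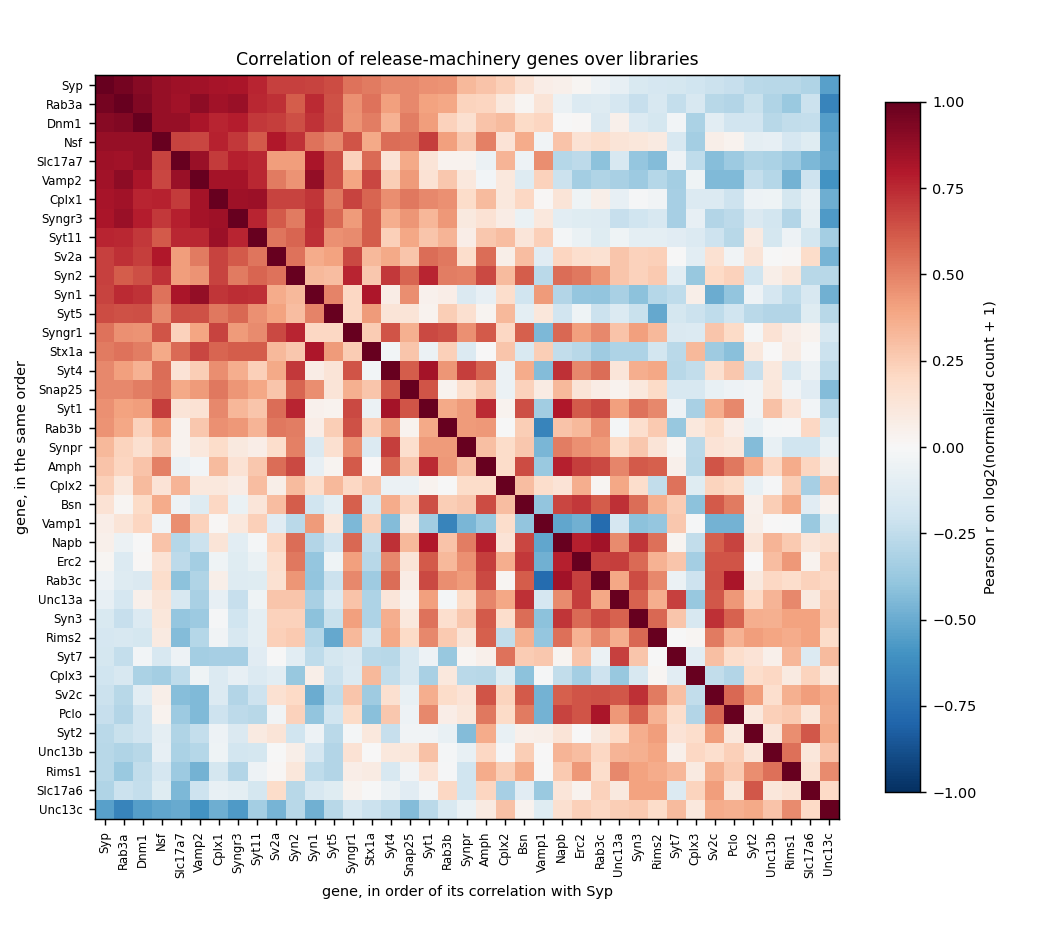
Colour gives Pearson's r of each pair of members over 36 libraries, with genes on both axes in order of their correlation with Syp. A block of high r from Syp to Syt11 stands at the top left, a second block around Napb, Erc2 and Rab3c lies below it, and Unc13c is negative to the first block.

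To set members against the whole table, every gene was correlated with 5 member genes that stand for different steps of release. Significance was taken from a two-sided permutation test with 100000 resamples, with Benjamini-Hochberg adjustment over all 158336 relations of 10 such gene or list profiles. A gene is called when its adjusted p is under 0.05. The smallest p the test can give is 1e-05, which became an adjusted p of 0.000687. These p-values treat the libraries as exchangeable, which the 6 unseen groups may not be.

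With Syp, 14 of 38 other members were called positive, against 10.9% of all genes, and 1 was called negative, against 6.86%. Ahead of all 15836 genes stood Rab3a (r = 0.955, rho = 0.928, adjusted p of the permutation test 0.000687 for r and 0.00104 for rho), followed by Tmem130, Acot7 (an acyl-CoA thioesterase abundant in neurons), Itm2c and Rtn1 (a reticulon of neuronal endoplasmic reticulum), with r between 0.918 and 0.928. The other called members were Dnm1 (0.910), Nsf (0.869), Slc17a7 (0.847), Vamp2 (0.836), Cplx1 (0.825), Syngr3 (0.819), Syt11 (0.760), Sv2a (0.684), Syn2 (0.682), Syn1 (0.676), Syt5 (0.653), Syngr1 (0.543) and Stx1a (0.519). The member called negative was Unc13c (-0.542). Leaving out the 2 libraries farthest from the Syp median, Rab3a had an r of 0.932 and Syngr1 one of 0.102, so the relation of Syngr1 rests on those libraries. Without library 17, 12 members were called positive, against 9.22% of all genes. Syn2 (adjusted p of the permutation test 0.0969), Syngr1 (0.601) and Unc13c (0.135) were then not called.

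With Slc17a7, 12 of 38 other members were called positive, against 12.9% of all genes, and 1 was called negative, against 8.49%. Of the 12, 10 were also among the 14 called with Syp, which itself had an r of 0.847 with Slc17a7. Shared calls over all genes were not counted. The highest were Dnm1 (0.868), Vamp2 (0.862), Syp (0.847), Rab3a (0.840) and Syn1 (0.820), and the negative one was Unc13c (-0.507). The 5 genes of the table closest to Slc17a7 were Ppp2r1a (the scaffold subunit of protein phosphatase 2A), Fkbp8, Atp6v0c (a subunit of the proton pump that energizes vesicles), Ap2m1 (a subunit of the clathrin adaptor AP2) and Agap3, with r between 0.922 and 0.931. Without library 17, 12 members were called positive, against 12.3% of all genes. Rab3c (r = -0.622), Napb (-0.519), Erc2 (-0.493) and Sv2c (-0.486) were then called negative, 4 members against 8.87% of all genes, and Unc13c was not (-0.396, adjusted p of the permutation test 0.144).

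With Bsn, 11 of 38 other members were called positive, against 7.57% of all genes, and 0 were called negative, against 5.53%. Of members with a negative r, 2 had an unadjusted p under 0.05 in the permutation test, and Spearman's rho also called 0. The called members were Unc13a (r = 0.728, rho = 0.784), Erc2 (0.709), Napb (0.670), Amph (0.649), Syt1 (0.644), Sv2c (0.616), Rab3c (0.608), Syn2 (0.607), Syngr1 (0.5995), Syn3 (0.556) and Pclo (0.516). They shared 2 genes, Syn2 and Syngr1, with those called with Syp, and 0 with those called with Slc17a7. Bsn itself had an r of 0.147 with Syp and -0.0499 with Slc17a7. Shared calls over all genes were not counted, so the overlap is not set against a background. Among the 5 genes closest to Bsn in the table were Cacna1b (the pore of N-type calcium channels, which trigger release), Tenm2 (a teneurin adhesion protein), Mtor and Atp2b3 (a plasma membrane calcium pump), with r between 0.811 and 0.840. Leaving out the 2 libraries farthest from the Bsn median, Unc13a had an r of 0.704 and Pclo one of 0.393. Without library 17, 12 members were called positive, against 6.94% of all genes, Rims1 being the added one (0.560).

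With Snap25, 8 of 38 other members were called positive, against 2.42% of all genes, and 0 negative, against 1.23%. Of members with a negative r, 1 had an unadjusted p under 0.05 in the permutation test, and Spearman's rho also called 0. The called members were Syt1 (r = 0.628), Syt4 (0.608), Syn2 (0.585), Nsf (0.553), Cplx1 (0.528), Dnm1 (0.515), Rab3a (0.482) and Syn1 (0.467). Without library 17 only Syt1, Syt4 and Syn2 were called, 3 members against 1.37% of all genes. The 5 genes closest to Snap25 were Rnf14, Ywhaz and Ywhaq (both 14-3-3 proteins), Idh3a (a subunit of mitochondrial isocitrate dehydrogenase) and Slc25a46, with r between 0.711 and 0.793.

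With Slc17a6, the transporter of thalamic and other subcortical glutamate neurons, 1 of 38 other members was called positive, against 1.74% of all genes, and 0 negative, against 0.777%. Of members with a negative r, 3 had an unadjusted p under 0.05 in the permutation test, and Spearman's rho also called 0. The called member was Syt2 (r = 0.625, rho = 0.616, adjusted p of the permutation test 0.00295). Its r was 0.497 without the 2 libraries farthest from the Slc17a6 median. Without library 17 it was 0.522, and 1 member was called positive, against 2.07% of all genes. Vamp1 was then called negative (-0.541), against 0.581% of all genes. Among the 5 closest genes were Ankrd34c, Rgs4 (a regulator of G-protein signalling), Garnl3 and Satb1 (a chromatin organizer), with r between 0.803 and 0.844.

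**Figure D3:**
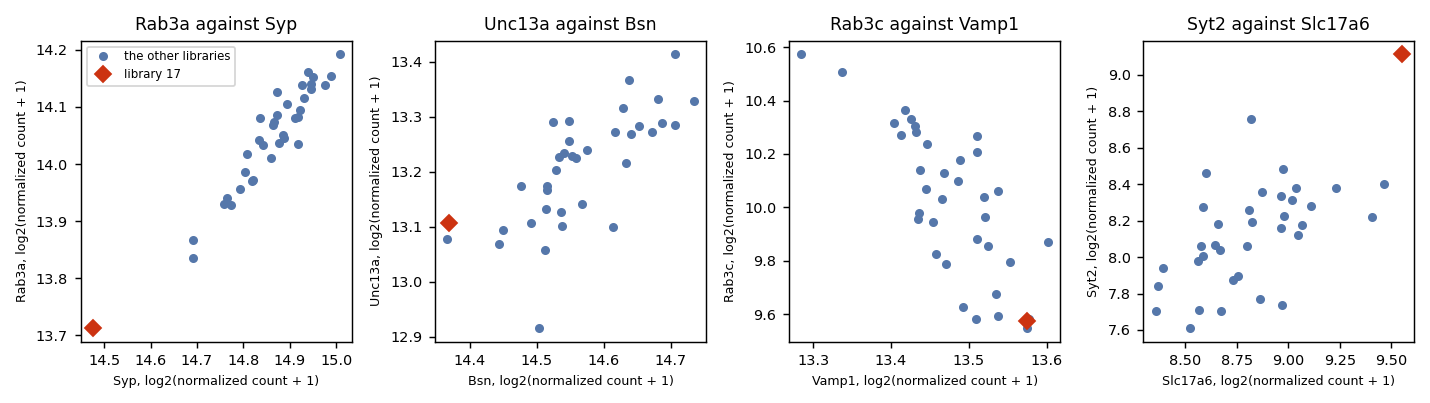
Each panel plots 2 members as log2(normalized count + 1), a point per library, with library 17 as a red diamond. Rab3a follows Syp closely (r = 0.955) and Unc13a follows Bsn more loosely (0.728), Rab3c runs against Vamp1 (-0.770), and library 17 lies at the upper end of Syt2 and Slc17a6 (0.625).

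Other genes of the release cycle were taken from a list of 45, of which 43 had a row and passed the minimum. Of these, 11 were called positive with Syp, against 10.9% of all genes, and 0 negative, against 6.86%, with 2 at an unadjusted p under 0.05 in the permutation test and a negative r. The highest were Atp6v0a1 (a proton pump subunit, r = 0.881), Slc32a1 (the vesicular GABA transporter, 0.802) and Scamp5 (0.799). Without library 17, 11 were called positive with Syp, against 9.22% of all genes, and 1 negative (Stxbp5, r = -0.497), against 4.83%. With Bsn, 11 were called positive, against 7.57% of all genes, and 1 negative, against 5.53%. The highest was Synj1 (synaptojanin 1, a lipid phosphatase of vesicle retrieval, 0.767), and the negative one was Vamp3 (cellubrevin, a SNARE found outside neurons as well, -0.760). Without library 17, 9 were called positive with Bsn, against 6.94% of all genes, and 1 negative, against 879 of 15835 genes. With Slc17a7, 11 were called positive, against 12.9% of all genes, and 1 negative (Rims3, -0.510), against 8.49%. Without library 17, 10 were called positive with Slc17a7, against 12.3% of all genes, and 3 negative (Syt10, Stxbp5 and Ppfia2), against 8.87%. Rims3 was then not called with Slc17a7 (r = -0.407, adjusted p of the permutation test 0.127). With Slc17a6, 3 were called positive with and without library 17, against 1.74% and 2.07% of all genes, the highest with it being Rims3 (0.712). With Snap25, 9 were called positive, against 2.42% of all genes, but without library 17 only 4 were, against 1.37%. Genes of this list named only for a count of 3 or fewer were chosen after their values were seen.

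Members were then set against marker lists of other cells. In bulk tissue, fewer cells of a type and less RNA per cell cannot be told apart. The part of glial content, of interneuron content or of neighbouring cortex in the relations among members was not tested. The values of each list are given beside the counts.

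With the astrocyte list (6 of 6 markers, summed level 85133 to 117229 normalized counts), 14 of 39 members were called negative, against 5.33% of all genes, and 1 was called positive, against 4.63%. The strongest negative relations were those of Nsf (r = -0.766), Rab3a (-0.763), Syp (-0.707), Dnm1 (-0.686), Sv2a (-0.669) and Syngr3 (-0.631). The positive one was Unc13c (0.631, rho = 0.621, adjusted p of the permutation test 0.0011). Leaving out the 2 libraries farthest from the list's median, r was -0.709 for Nsf and 0.559 for Unc13c. Without library 17, 9 members were called negative, against 2.12% of all genes, and Unc13c was still called positive (0.558), against 2.72%. Apart from Syp itself, Syt1, Syt4 and Snap25, the members called negative with astrocyte markers were all among those called positive with Syp, and Unc13c had the opposite sign to them in both scans. How many of all genes were called in both scans was not counted.

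With the oligodendrocyte list (6 of 6 markers, summed level 123664 to 340053), 9 of 39 members were called negative, against 5.31% of all genes, and 1 was called positive, against 5.05%. The negative ones were Synpr (r = -0.773), Erc2 (-0.630), Syn2 (-0.623), Napb (-0.585), Bsn (-0.580), Syngr1 (-0.574), Syt4 (-0.568), Rab3c (-0.531) and Cplx2 (-0.468). The positive one was Vamp1 (0.499, adjusted p of the permutation test 0.0371). Without library 17, 4 were called negative (Synpr, Erc2, Napb and Rab3c), against 3.51% of all genes, and Vamp1 was not called (0.458, adjusted p of the permutation test 0.0688).

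With the interneuron list (6 of 6 markers, summed level 10932 to 22716), 15 of 39 members were called positive, against 6.65% of all genes, and 1 was called negative (Unc13c, r = -0.476), against 5.44%. The highest were Syt4 (0.735), Syt1 (0.710), Sv2a (0.702), Syn2 (0.7004) and Nsf (0.693). Without library 17 only Syt4, Syt1, Sv2a, Nsf and Amph were called, 5 members against 2.07% of all genes. Leaving out the 2 libraries farthest from the list's median, r was 0.494 for Syt4 and 0.652 for Sv2a.

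The lists of structures that border the hippocampus gave few calls. With the choroid plexus list (5 of 6 markers with a row, summed level 45.4 to 1940), 0 of 39 members were called positive, against 1.62% of all genes, with 0 at an unadjusted p under 0.05 in the permutation test and 0 by Spearman's rho. Erc2 alone was called negative (r = -0.478), against 1.05% of all genes, and was not called without library 17 (adjusted p of the permutation test 0.0831). Of members with a negative r, 11, Erc2 included, had an unadjusted p under 0.05 in the permutation test. The median r of members with this list was -0.165, against -0.00109 over all genes. With the thalamus list (7 of 7 markers, 1422 to 1735), Cplx3 alone was called positive (0.474), against 0.202% of all genes, and was not called without library 17 (adjusted p of the permutation test 0.0854). Negative calls were 0, against 0.164% of all genes, with 0 at an unadjusted p under 0.05 and 0 by Spearman's rho. The r of Slc17a6 with this list was 0.00176 (adjusted p of the permutation test 0.997).

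A neocortex list of 4 markers, summed level 1912 to 3437, was added as a profile after the values had been seen, with adjustment over its own genes. Of 39 members, 4 were called positive, against 1.89% of all genes, namely Syt2 (r = 0.730, rho = 0.616, adjusted p of the permutation test 0.00244), Slc17a6 (0.674), Rims1 (0.526) and Unc13c (0.512). Members called negative were 0, against 1.04% of all genes, with 10 at an unadjusted p under 0.05 in the permutation test and 0 by Spearman's rho. Library 17 had the highest level of this list and of Syt2, Slc17a6, Rims1 and Unc13c alike. Without it 4 members were called positive, against 2.61% of all genes, namely Syt2 (0.614), Slc17a6 (0.583), Syngr1 (0.581) and Syn3 (0.522). Slc17a6 and Syt2 thus passed this test with and without library 17, while Rims1 and Unc13c passed it only with library 17. Syngr1 and Syn3 passed it only without library 17, and their r over all 36 libraries was -0.0233 and 0.397.

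**Figure D4:**
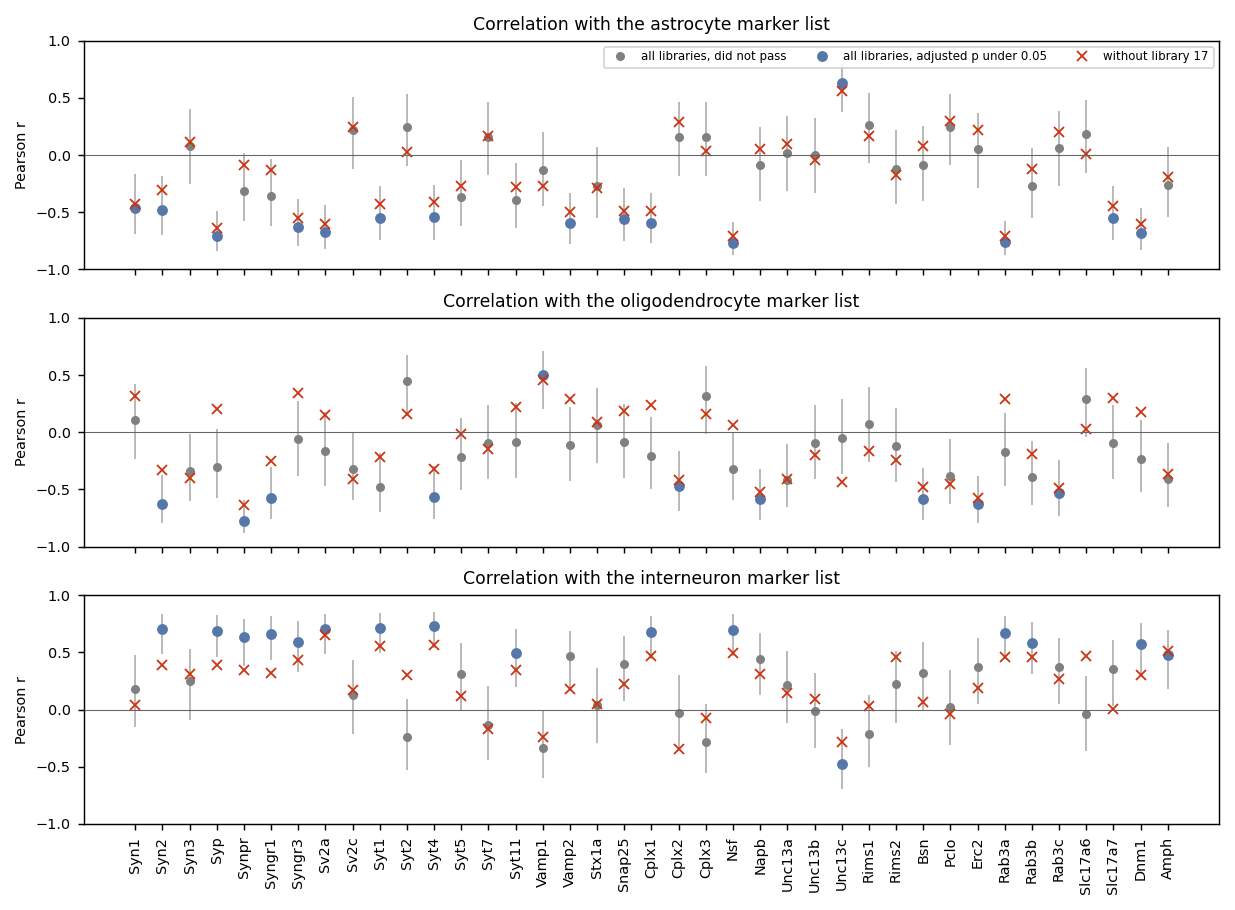
Each panel gives Pearson's r of every member with the mean log2 level of a marker list, with the 95% interval as a bar, relations with an adjusted p under 0.05 in blue, and crosses for r without library 17. Nsf, Rab3a and Syp are lowest against astrocyte markers, Synpr against oligodendrocyte markers, and Syt4 is highest with interneuron markers, where leaving out library 17 moves most values towards 0.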

How the data were processed

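Total RNA of rat hippocampus was sequenced, and the deposited table gives 1 signal value per gene and library, a normalized count as the authors deposited it, with whole-read steps differing between libraries. Per the submitters' processing notes, kallisto 0.43 and DESeq2 were used, with no role stated. Neither transcriptome nor build is given in the sources used here. All 36 columns were assigned to hippocampus as 1 group, since their names give no cycle status or age, and tests designed for count data were not used. Values were taken as log2(normalized count + 1), over 15837 genes with a median of at least 10. Pearson's r was tested by two-sided permutation (100000 resamples) and adjusted by Benjamini and Hochberg. Intervals are 95% Fisher intervals. The scan was tested on simulated data. Members, gene lists and marker lists were chosen with earlier results of these data known. Named genes were the listed members, and the 5 genes of highest r with each of 5 member genes, of which some are not reported here. Analysis used Python 3.11.15, NumPy 2.4.6, pandas 2.3.3 and SciPy 1.17.1. Alternatives were a pseudocount of 10, no minimum, scaling to column totals, Spearman's rho, leaving out the 2 libraries farthest from the median of the correlated profile and, added after seeing the data, leaving out library 17 and the neocortex list. Libraries with fewer estimated reads have larger counting error in low genes such as Sv2c and Syt2.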

Additional observations from a re-analysis of the deposited data

How the results depend on the processing

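Of the 95 called relations of members, 93 kept their call with a pseudocount of 10, 91 with scaling to column totals, 87 with no minimum, 66 with Spearman's rho, 60 without library 17 and 49 without the 2 libraries farthest from the median. None of the 95 reversed under these 6 alternatives. The last setting also tests fewer libraries and a narrower range. The cause of the other losses was not tested. Some of the changed counts of members follow, and others changed too. With astrocyte markers, 11 members were called negative by Spearman's rho and 10 without the 2 farthest libraries, with 1 positive in each. With Syp, 13 were positive and 1 negative by rho, against 12 and 0 without the 2 farthest. Without the 2 farthest, 10 were positive and 0 negative with Bsn, and 10 and 1 with Slc17a7. For the profiles below, members called in either direction are counted together. With Snap25 they were 3 by Spearman's rho, 2 without the 2 farthest libraries and 3 without library 17. With Slc17a6 the counts of members were 4 without the 2 farthest, against 440 of all genes called positive and 127 negative. Without library 17 they were 2, against 328 and 92 of all genes. With oligodendrocyte markers the counts of members were 1, 1 and 4 in the order given for Snap25, and with interneuron markers 8, 3 and 5. With choroid plexus markers they were 2 with column totals and 0 with a pseudocount of 10, with no minimum, without the 2 farthest and without library 17. Over all genes, positive and negative calls with these markers were 238 and 141 with column totals and 185 and 107 with a pseudocount of 10. They were 202 and 127 with no minimum, 227 and 117 without the 2 farthest, and 193 and 103 without library 17. With thalamus markers the counts of members were 0 without the 2 farthest and without library 17, and with neocortex markers 2 by rho and 2 without the 2 farthest. Counts over all genes were 294 (rho), 220 (2 farthest) and 313 (library 17) for Snap25, 645, 444 and 1080 for oligodendrocyte, 739, 600 and 766 for astrocyte, 787, 469 and 601 for interneuron and 28, 27 and 34 for thalamus markers. They were 1848 and 1610 for Syp and 162 and 165 for neocortex markers by rho and without the 2 farthest. Without the 2 farthest they were 1298 for Bsn and 2186 for Slc17a7. Of the wider list, 3 genes were called with Snap25 by rho and 2 without the 2 farthest. A comparison of paralogs per transcript length was not run. No paired analysis was possible because the columns carry no group or replicate number of the labels. Estimated depth was lowest in library 30, at about 17909000 reads, which limits genes of low counts most.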
